A study of Homo sapiens with 9 samples.

Results

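Clustered histone genes are the replication-dependent genes for the linker histone H1 and the core histones H2A, H2B, H3 and H4, named HIST1H to HIST4H after the cluster they lie in. Members were chosen by name, and 89 gene identifiers carried such a symbol. Of these, 13 had names ending in PS and a number and were set aside. Another 12 summed to fewer than 20 counts over the 9 libraries. The remaining 64 genes, of 64253 identifiers counted, are by name 6 H1, 13 H2A, 21 H2B, 12 H3 and 12 H4 genes. Of the 64, 59 had enough counts to enter the test. HIST2H2BA, HIST2H2BD, HIST2H3DP1 and HIST3H2BA are annotated as pseudogenes, and of these only HIST2H2BA was tested. The last member inside the threshold was HIST3H2BA with 28 counts, and the first outside it was HIST2H4A with 15.

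RNA was measured in IMR90, a human fetal lung fibroblast line, at population doubling 30 in 2% oxygen. The 3 libraries of vector control received the pLKO.1 vector with no hairpin (the sample labels call it empty, the treatment protocol calls it GFP). A second set of 3 received a short hairpin against RRM2 (shRRM2), which the labels describe as senescence after dNTP depletion. The last set of 3 received that hairpin and another against p16 (shRRM2/shp16), labelled as senescence bypass. A second infection, 24 hours after the first, is given for all 3 groups. All groups carried lentiviral vectors and 7 days of selection in 3 ug/mL puromycin, and no group with the p16 hairpin alone was analysed here. RRM2 is a subunit of ribonucleotide reductase, which makes the deoxynucleotides for DNA synthesis, and p16 is an inhibitor of the CDK4 and CDK6 kinases encoded by CDKN2A. The labels do not say whether replicates a, b and c were separate cultures, so p-values measure only the spread between these libraries.

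Cells make most of their histones while they copy DNA, because each new stretch of DNA needs new nucleosomes. The clustered genes have no introns in their classical form, are transcribed together at the histone locus body, and give mRNAs that end in a conserved stem-loop in place of a poly(A) tail. The protein SLBP binds that stem-loop and is needed for 3′ end processing and translation, and the mRNAs are degraded quickly when DNA synthesis stops. Libraries made by depletion of ribosomal RNA, as here, keep mRNAs without a poly(A) tail.

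The stem-loop is shown for some of the members described below, because it is the sequence feature that sets these mRNAs apart from others. Only members with an annotated sequence after the stop codon could be shown. HIST1H2AJ, HIST1H2BB, HIST2H3D and HIST1H4D, which fell furthest among H2A, H2B, H3 and H4 genes, had none. It was searched as 6 bases that begin with GG, 4 loop bases and the reverse complement of those 6, on the sense strand, in the first 120 bases after the stop codon of each GENCODE 29 transcript. Of 63 members found in that annotation, 25 had at least 60 annotated bases after the stop codon, and 23 of these 25 held such a stem-loop. Over all 24 members that held it, its first base lay 23 to 57 bases after the stop codon. Among 19094 other genes with as many annotated bases, 119 (0.623%) held any such hairpin, and 5 (0.0262%) held one with a stem of the letters seen in the histone genes. Capitals mark stem, loop and stem, and positions are on GRCh38.
HIST1H2AC (chr6:26124664-26124689, plus strand): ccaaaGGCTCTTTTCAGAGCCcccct
HIST2H2BE (chr1:149886183-149886208, minus strand): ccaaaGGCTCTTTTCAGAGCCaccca
HIST1H2BL (chr6:27807479-27807504, minus strand): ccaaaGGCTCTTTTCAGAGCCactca
HIST3H2A (chr1:228457364-228457389, minus strand): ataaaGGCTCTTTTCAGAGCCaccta
HIST3H2BB (chr1:228458533-228458558, plus strand): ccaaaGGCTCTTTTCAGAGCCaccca
HIST1H3H (chr6:27810511-27810536, plus strand): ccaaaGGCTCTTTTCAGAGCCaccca
HIST1H4E (chr6:26204996-26205021, plus strand): tcaaaGGCCCTTTTCAGGGCCgccca
HIST4H4 (chr12:14770719-14770744, minus strand): caaaaGGCCCTTTTCAGGGCCcccaa
The stem was GGCTCT in 18 members, all of them H2A, H2B or H3 genes, and GGCCCT in 6, all of them H4 genes. None of the 6 H1 members had 60 annotated bases after its stop codon, so this window says nothing about H1.

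Promoter motifs are given by class. In the 250 bases before the RefSeq start (GRCh38.p14), searched on both strands, 49 of 64 members had a sequence in the table used. The octamer ATTTGCAT, the motif that POU2F1 (OCT1) recognises, was found in 9 of 12 H2A and 8 of 12 H2B promoters and in 0 of 6 H1, 0 of 9 H3 and 0 of 10 H4 promoters, beside 1.63% of all 35116 promoters. TATAAA was found in 31 of 49 (10.7% of all promoters) and CCAAT in 42 of 49 (32.0% of all promoters). Of the 10 H4 promoters 3 held CCAAT, whereas all 6 H1, 12 H2A, 12 H2B and 9 H3 promoters did. Neighbouring H2A and H2B genes share their promoter region, so these are not independent observations.

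The promoters of the H2B genes with the lowest and the highest log2 fold change in shRRM2 are shown, since they hold the same motifs and lie at opposite ends of their class, followed by that of the gene with the lowest value of all, HIST2H3D. Capitals mark ATTTGCAT, TATAAA and CCAAT or their reverse complements.
HIST1H2BB (chr6:26043714-26043963, minus strand): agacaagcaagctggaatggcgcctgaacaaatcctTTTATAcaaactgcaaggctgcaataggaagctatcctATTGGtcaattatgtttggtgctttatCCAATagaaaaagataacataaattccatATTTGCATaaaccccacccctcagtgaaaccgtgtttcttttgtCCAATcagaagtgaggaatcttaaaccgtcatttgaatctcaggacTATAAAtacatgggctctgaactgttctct
HIST2H2BE (chr1:149886683-149886932, minus strand): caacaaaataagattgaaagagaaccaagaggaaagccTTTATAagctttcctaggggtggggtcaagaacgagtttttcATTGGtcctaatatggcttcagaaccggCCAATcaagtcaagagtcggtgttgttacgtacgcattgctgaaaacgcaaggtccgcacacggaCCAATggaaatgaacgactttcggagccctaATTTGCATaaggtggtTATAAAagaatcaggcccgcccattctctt
HIST2H3D (chr1:149813694-149813943, minus strand): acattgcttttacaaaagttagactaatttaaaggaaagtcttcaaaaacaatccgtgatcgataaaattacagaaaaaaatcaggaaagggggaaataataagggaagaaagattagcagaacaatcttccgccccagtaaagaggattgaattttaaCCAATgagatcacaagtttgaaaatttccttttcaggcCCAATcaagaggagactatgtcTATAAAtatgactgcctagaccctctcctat
The octamer begins 120 bases before the start site in HIST1H2BB and 46 bases before it in HIST2H2BE. A match is a description of these letters and not of a bound factor.

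Values by library follow the order of replicates a, b and c. Gene counts were 15770895 to 24873291 per library. RRM2 itself stood at 481, 491 and 484 CPM in the control libraries, 59.98, 63.2 and 63.2 in shRRM2 and 181, 175 and 176 in shRRM2/shp16. The RRM2 level was 12.8% of control in shRRM2 and 36.5% in shRRM2/shp16, so the libraries with both hairpins kept more RRM2 mRNA. CDKN2A stood at 5.95, 6.15 and 5.96 CPM in the control libraries, 6.79, 6.75 and 5.97 in shRRM2 and 4.33, 3.93 and 4.57 in shRRM2/shp16, where reads of p16 and of the ARF transcript of this gene are counted together. It did not pass in shRRM2 against control, at a log2 change of 0.11 ± 0.12 (SE, adjusted p = 0.431), and was lower with both hairpins than in shRRM2, at -0.60 ± 0.13 (SE, adjusted p = 7.01e-05). Fibroblast markers were abundant (9 of 9 between 41.3 and 14832 CPM as group means, LUM lowest), while the 9 markers of epithelial, immune and endothelial cells reached at most 2.34 CPM and KRT5, CD3E and SFTPC were at 0 in all libraries. CPM is a count per 1000000 counts of the library, whose size was scaled with TMM factors.

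With RRM2 silenced, transcripts of all 5 classes stood at 22.4% to 25.5% of control. Summed over the 64 members, they made up 10273, 9485 and 9635 CPM in the control libraries, 2262, 2422 and 2211 CPM in the shRRM2 libraries, and 3086, 3006 and 2999 CPM in the shRRM2/shp16 libraries. The group means were 9798 ± 418, 2298 ± 110 and 3030 ± 48.3 (SD, n = 3), so shRRM2 stood at 23.5% of control and shRRM2/shp16 at 30.9%. The 3 groups did not overlap, and the difference between shRRM2/shp16 and shRRM2 was 9.76% of that between control and shRRM2. In bulk RNA, fewer cells in S phase and less histone mRNA per cell cannot be told apart.

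By class, the level in shRRM2 was 22.4% of control for H1, 23.8% for H2A, 23.2% for H2B, 22.5% for H3 and 25.5% for H4. With both hairpins it was 29.9%, 30.5%, 30.4%, 29.1% and 34.6% in the same order. H4 mRNAs summed to 2027, 1892 and 1930 CPM in control, 486, 532 and 472 in shRRM2, and 692, 668 and 667 with both hairpins. Their share of all clustered histone counts was 19.9%, 21.6% and 22.3% in the 3 groups, while that of H3 was 19.8%, 19.0% and 18.7%. H1 mRNAs summed to 1919, 1697 and 1729 CPM, then 386, 406 and 405, then 553, 519 and 529. The shares of the classes thus moved little while the whole pool was 4.26-fold lower.

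**Figure D1:**
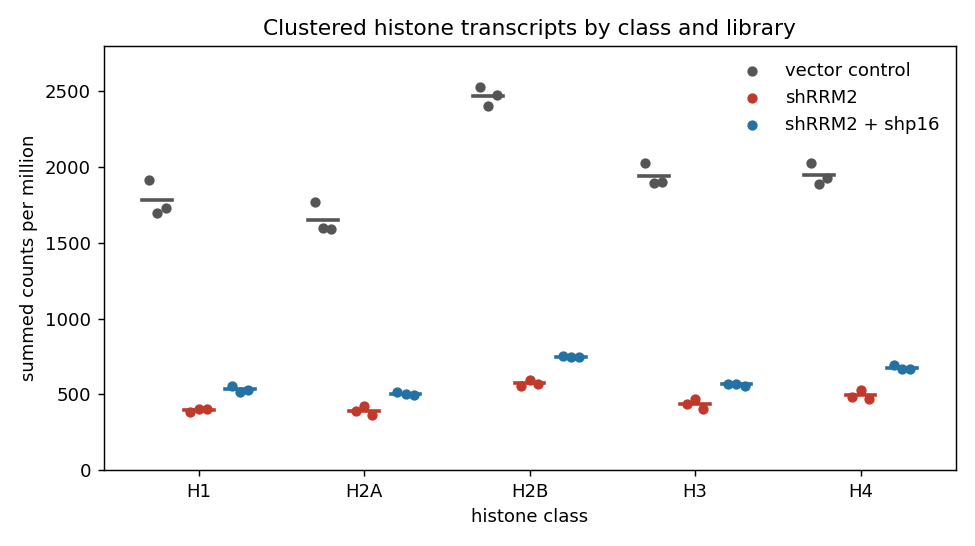
Summed CPM of each histone class (y axis) in each library, grouped by class (x axis). Points are libraries, bars are means of 3 libraries. In all 5 classes the shRRM2 libraries lie lowest, the shRRM2/shp16 libraries lie above them, and both lie far below the control libraries.

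Each of the 59 tested members was lower in shRRM2 than in control at an adjusted p under 0.05 (edgeR), where 31.8% of all 16561 tested genes were lower and 29% higher. All 59 were lower at least 2-fold, against 3.26% of all tested genes, and in all 59 the 3 shRRM2 libraries lay below the 3 control libraries, against 32.9%. Their log2 fold changes ran from -3.00 for HIST2H3D to -1.04 for HIST4H4 with a median of -2.15, beside a median of 0.00 over all tested genes. The class medians lay close together: -2.27 for the 5 H1 genes, -2.12 for the 13 H2A genes, -2.12 for 18 H2B genes, -2.19 for 11 H3 genes and -2.07 for 12 H4 genes. In 46 of 59 genes the shRRM2 level was between 15% and 30% of control. It was below 15% in 6 genes and above 40% in 4.

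Reads tallied as overlapping no counted feature moved with the groups too, and where in the genome they lie was not examined. They were 17.6% to 18.9% of uniquely aligned reads in control, 27.7% to 28.8% in shRRM2 and 23.5% to 24.4% with both hairpins, an order opposite to that of the histone sums. Their part in the histone values was not tested.

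**Figure D2:**
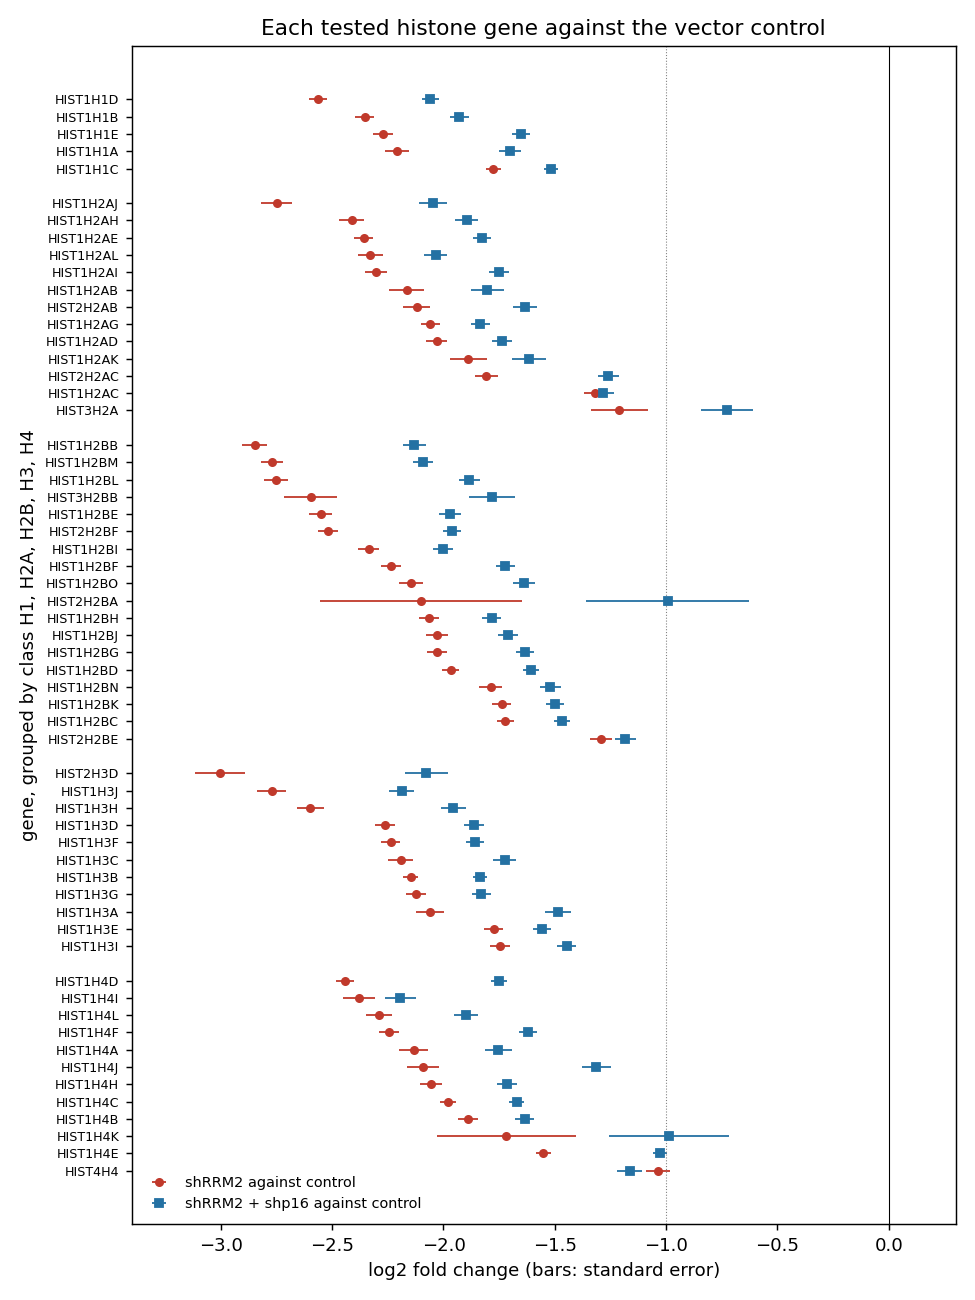
Fitted log2 fold change against control (x axis) of each of the 59 tested members (y axis, sorted within class) in shRRM2 (red circles) and in shRRM2/shp16 (blue squares), with standard errors. All red points lie left of the dotted line at a 2-fold fall, and the blue points lie to the right of the red ones except for HIST4H4.

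The linker histones H1 bind the DNA that enters and leaves the nucleosome. HIST1H1D, which encodes H1.3, fell furthest among them, from 223, 212 and 214 CPM in the control libraries to 36.9, 35.2 and 37.7 in shRRM2, with 51.4, 50.7 and 53.6 in shRRM2/shp16, a log2 change of -2.56 ± 0.04 (SE, adjusted p = 4.17e-39). HIST1H1B (H1.5) stood at 649, 551 and 562 CPM in the control libraries, 109, 117 and 118 in shRRM2 and 163, 149.6 and 152 in shRRM2/shp16. Its change was -2.35 ± 0.04 (SE, adjusted p = 2.32e-37) in shRRM2, and no window of 50 bases in any H1 gene was shared with another annotated transcript. HIST1H1E (H1.4) stood at 391, 335 and 347 CPM in the control libraries, 70.3, 74.9 and 76.8 in shRRM2 and 121, 109 and 112 in shRRM2/shp16, with a change of -2.27 ± 0.04 (SE, adjusted p = 3.26e-36). HIST1H1A (H1.1) stood at 112, 97.6 and 106 CPM in the control libraries, 22.2, 23.8 and 22.4 in shRRM2 and 33.4, 32.7 and 31.4 in shRRM2/shp16, with a change of -2.21 ± 0.05 (SE, adjusted p = 6.92e-33). HIST1H1C, which encodes H1.2, fell least, from 544, 502 and 499 CPM in the control libraries to 147, 154 and 149 in shRRM2, with 184, 176 and 179.6 in shRRM2/shp16, a change of -1.78 ± 0.03 (SE, adjusted p = 4.29e-37). In all 5 genes the control libraries lay above every library with a hairpin, and the libraries with both hairpins lay above those with shRRM2 alone. HIST1H1T, the testis H1 gene, was read only 3, 2 and 1 times in the control libraries, 4, 4 and 7 in shRRM2 and 4, 8 and 3 in shRRM2/shp16, and was not tested.

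The H1 pool changed in make-up as it shrank. HIST1H1C supplied 28.3%, 29.6% and 28.9% of H1 counts in the control libraries, 38.2%, 38.0% and 36.9% in shRRM2, and 33.3%, 34.0% and 34.0% with both hairpins. These 3 sets of shares do not overlap. HIST1H1B went the other way, with 33.8%, 32.5% and 32.5% of H1 counts in control, 28.3%, 28.95% and 29.2% in shRRM2, and 29.4%, 28.8% and 28.7% with both hairpins. HIST1H1D made up 12.2% ± 0.467, 9.18% ± 0.453 and 9.74% ± 0.431 in the same order (SD, n = 3), and HIST1H1E 20.1% ± 0.316, 18.5% ± 0.407 and 21.4% ± 0.461. HIST1H1A stayed between 5.53% and 6.30% in every library.

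**Figure D3:**
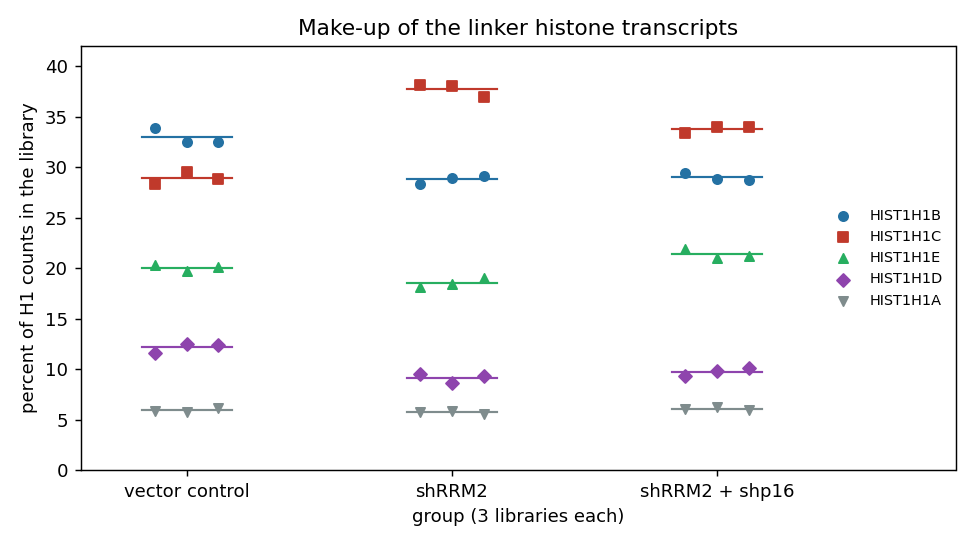
Share of each H1 gene in all H1 counts of a library (y axis, percent) by group (x axis). Points are libraries and bars are means of 3. HIST1H1C rises from 28.9% to 37.7% and stands at 33.8% with both hairpins, while HIST1H1B and HIST1H1D have lower shares in both hairpin groups than in control.

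H2A pairs with H2B to form the outer parts of the nucleosome core. Among 13 tested H2A genes, HIST1H2AJ fell furthest, at 113, 94.9 and 97.8 CPM in the control libraries, 15.6, 17.4 and 12.6 in shRRM2 and 23.3, 24.8 and 26.1 in shRRM2/shp16, a log2 change of -2.75 ± 0.07 (SE, adjusted p = 3.39e-32). Of its windows of 50 bases 83.7% also occur in HIST1H2AI, so reads of these copies cannot be fully told apart. HIST1H2AE stood at 329.5, 289 and 291 CPM in the control libraries, 58.2, 61.3 and 58.1 in shRRM2 and 88.4, 82.3 and 85.9 in shRRM2/shp16, with a change of -2.36 ± 0.04 (SE, adjusted p = 2.97e-37). HIST1H2AG stood at 303, 289.7 and 270.3 CPM in the control libraries, 67.3, 75.4 and 64.6 in shRRM2 and 82.7, 82.2 and 77.5 in shRRM2/shp16, with a change of -2.06 ± 0.04 (SE, adjusted p = 2.64e-35). These were the H2A genes with the most counts, and in both the 3 groups kept apart from each other. HIST1H2AC stood at 202, 185 and 179 CPM in the control libraries, 78.6, 82.1 and 66.6 in shRRM2 and 78.8, 78.4 and 76.1 in shRRM2/shp16, a change of -1.32 ± 0.05 (SE, adjusted p = 1.19e-26). Its shRRM2 and shRRM2/shp16 libraries overlap. HIST3H2A, in the small HIST3 cluster, stood at 9.68, 8.497 and 7.39 CPM in the control libraries, 3.75, 3.75 and 3.67 in shRRM2 and 5.28, 5.08 and 5.27 in shRRM2/shp16, a change of -1.21 ± 0.13 (SE, adjusted p = 5.13e-11). With 40.2% and 43.7% of control these 2 fell least in their class, and the 10 genes other than these and HIST1H2AJ lay between 18.8% and 28.6%.

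H2B supplied the largest class by number, with 18 tested genes. HIST1H2BB fell furthest, at 136, 117 and 129 CPM in the control libraries, 17.2, 18.3 and 17.6 in shRRM2 and 30.1, 27.6 and 29.8 in shRRM2/shp16, a log2 change of -2.85 ± 0.06 (SE, adjusted p = 6.02e-36). The H2B genes with most counts were HIST1H2BC and HIST1H2BD. HIST1H2BC stood at 252, 239 and 246 CPM in the control libraries, 68.8, 77.01 and 76.9 in shRRM2 and 88.6, 88.9 and 88.7 in shRRM2/shp16, a change of -1.72 ± 0.04 (SE, adjusted p = 1.42e-34). For HIST1H2BD the levels were 238, 236 and 244 CPM in the control libraries, 59.3, 59.8 and 64.4 in shRRM2 and 79.7, 76.3 and 79.7 in shRRM2/shp16, a change of -1.97 ± 0.04 (SE, adjusted p = 1.22e-36). In both the 3 groups do not overlap. HIST2H2BE stood at 85.7, 88.9 and 98.8 CPM in the control libraries, 36.7, 38.1 and 36.4 in shRRM2 and 38.6, 39.4 and 42.1 in shRRM2/shp16, a change of -1.29 ± 0.05 (SE, adjusted p = 3.63e-25). It fell least among H2B genes, and its 3 shRRM2 libraries were still all below its 3 control libraries. The other 16 H2B genes lay between 14.6% and 30.3% of control. HIST2H2BA, a pseudogene by annotation, had at most 1.12 CPM in any library and a change of -2.10 ± 0.45 (SE, adjusted p = 0.000101), with the widest error of all members.

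H3 and H4 form the central tetramer of the nucleosome. HIST2H3D, the H3 gene with the lowest value of all members, stood at 30.97, 27.6 and 27.9 CPM in the control libraries, 3.55, 4.85 and 2.41 in shRRM2 and 6.497, 7.42 and 6.61 in shRRM2/shp16, a log2 change of -3.00 ± 0.11 (SE, adjusted p = 8.34e-26). Its shRRM2 libraries spread from 2.41 to 4.85 CPM, and 80.4% of its windows are shared with other transcripts. HIST1H3B stood at 505, 489 and 479 CPM in the control libraries, 108, 119 and 106 in shRRM2 and 137, 137 and 139 in shRRM2/shp16, a change of -2.15 ± 0.03 (SE, adjusted p = 3.23e-39). HIST1H3F stood at 262, 247 and 243 CPM in the control libraries, 55.7, 56.6 and 47.6 in shRRM2 and 71.2, 68.2 and 68.5 in shRRM2/shp16, a change of -2.24 ± 0.04 (SE, adjusted p = 2.35e-36). Neither shares a window with another gene, and in both the 3 groups do not overlap. HIST1H3I fell least in its class, at 145, 135 and 144 CPM in the control libraries, 43.5, 43.6 and 39.5 in shRRM2 and 52.3, 52.1 and 51.2 in shRRM2/shp16, a change of -1.75 ± 0.04 (SE, adjusted p = 2.85e-32). The 11 tested H3 genes lay between 12.5% and 29.9% of control in shRRM2.

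Among H4 genes, HIST1H4D fell furthest, at 233, 235 and 234 CPM in the control libraries, 43.04, 45.5 and 40.5 in shRRM2 and 70.04, 69.4 and 69.1 in shRRM2/shp16, a log2 change of -2.44 ± 0.04 (SE, adjusted p = 4.17e-39). HIST1H4C stood at 391, 353 and 365 CPM in the control libraries, 94.3, 96.7 and 90.6 in shRRM2 and 118, 114 and 117 in shRRM2/shp16, a change of -1.98 ± 0.04 (SE, adjusted p = 2.69e-37). HIST1H4E stood at 342, 327 and 329 CPM in the control libraries, 109, 119.9 and 111 in shRRM2 and 165, 161 and 164 in shRRM2/shp16, a change of -1.55 ± 0.03 (SE, adjusted p = 1.07e-34). With both hairpins HIST1H4E was at 49.1% of control. HIST4H4, which lies alone at chr12:14767999-14771131, stood at 48.4, 48.6 and 47.4 CPM in the control libraries, 23.5, 23.8 and 23.1 in shRRM2 and 21.8, 20.9 and 21.8 in shRRM2/shp16, a change of -1.04 ± 0.06 (SE, adjusted p = 1.88e-20). It is the member with the smallest fall, and it was lower, not higher, in all 3 libraries with both hairpins than in the 3 shRRM2 libraries. HIST1H4K had 1.93 ± 0.464 CPM in control (SD, n = 3), all its windows occur in HIST1H4J, and its change was -1.72 ± 0.31 (SE, adjusted p = 6.94e-06). The 12 tested H4 genes lay between 18.4% and 48.8% of control in shRRM2.

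**Figure D4:**
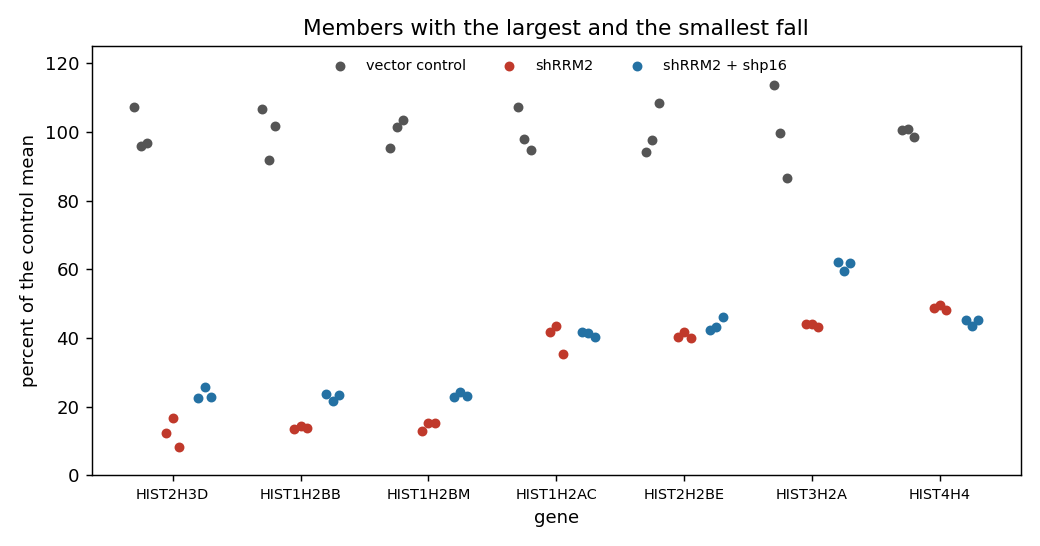
Level in each library as a percentage of the control mean (y axis) for 3 members with a large fall and the 4 members above 40% of control in shRRM2 (x axis). Points are libraries. With both hairpins HIST1H2BB and HIST1H2BM lie clearly above shRRM2, HIST1H2AC and HIST2H2BE lie near it, and HIST4H4 lies below it.

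With both hairpins all 59 members remained below control. In shRRM2/shp16 against control 59 of 59 were lower at an adjusted p under 0.05, where 32.4% of all tested genes were lower and 30% higher. Of these, 56 were lower at least 2-fold, against 6% of all tested genes, and none of the 59 overlapped with control, where 33.8% of all tested genes lay lower without overlap. The 3 that were lower by less than 2-fold were HIST3H2A, HIST1H4K and HIST2H2BA, with log2 changes of -0.73, -0.99 and -0.99. The call of HIST2H2BA was lost without shRRM2/shp16 replicate b (adjusted p = 0.141), without control replicate b (0.109) and with DESeq2 (0.0922), and no other tested member lost its call in this comparison under the settings that kept it in the test.

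Against shRRM2, 53 of 59 members were higher with both hairpins, where 31.9% of all tested genes were higher and 29.1% lower. None of the 53 rose as much as 2-fold, which 5.19% of all tested genes did, and 53 members had non-overlapping higher values, against 33.7%. The median log2 fold change was 0.43 over members and 0.01 over all tested genes. The classes again lay close, with medians of 0.50 for H1, 0.48 for H2A, 0.45 for H2B, 0.40 for H3 and 0.39 for H4. Among members that rose, HIST2H3D had the largest change at 0.93 ± 0.15 (SE, adjusted p = 7.19e-07), followed by HIST1H2BL at 0.87 ± 0.06 (SE, adjusted p = 6.56e-16) and HIST3H2BB at 0.81 ± 0.15 (SE, adjusted p = 1.08e-05). HIST1H1E, the H1 gene that rose most, changed by 0.62 ± 0.05 (SE, adjusted p = 4.57e-15), and HIST1H1C, which rose least, by 0.26 ± 0.03 (SE, adjusted p = 1.37e-08). RRM2 rose in the same comparison by 1.51 ± 0.04 (SE, adjusted p = 7.92e-34), and its part in the histone values was not tested.

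The 6 members not called were HIST1H2AC at 0.04 ± 0.05 (SE, adjusted p = 0.532), HIST2H2BE at 0.11 ± 0.06 (SE, adjusted p = 0.0891), HIST1H4I at 0.19 ± 0.09 (SE, adjusted p = 0.0747), HIST4H4 at -0.13 ± 0.06 (SE, adjusted p = 0.075), and the low-count HIST1H4K at 0.73 ± 0.36 (SE, adjusted p = 0.0742) and HIST2H2BA at 1.11 ± 0.53 (SE, adjusted p = 0.0661). HIST1H2AC, HIST2H2BE and HIST4H4 are also 3 of the 4 members above 40% of control in shRRM2. The fourth of them, HIST3H2A, rose by 0.48 ± 0.14 (SE, adjusted p = 0.003). Both comparisons use the same shRRM2 libraries, so a small fall and a small rise of a gene are not independent observations. HIST1H2AK passed with a change of 0.27 ± 0.10 (SE, adjusted p = 0.0162) but not without shRRM2 replicate c (adjusted p = 0.167) or shRRM2/shp16 replicate b (0.111). HIST1H4I passed without shRRM2 replicate b (adjusted p = 0.0176) or shRRM2/shp16 replicate c (0.0415), HIST1H4K without shRRM2/shp16 replicate c (0.0138) and HIST2H2BA without shRRM2/shp16 replicate b (0.0289). The sign for HIST1H2AC turned to -0.05 without shRRM2 replicate c. In the authors' deposited table for this comparison, 51 of the 59 members are marked significant, all 51 higher, beside 14.9% of all tested genes, and 50 of these 51 were also called here. With limma on the 9 log2 RPKM columns the authors deposited, 12 members passed (11 higher, 1 lower). In that table, however, shRRM2 replicate c disagrees with the counts of the same library. With the 8 matching columns 54 passed. The share of all genes that passed with limma is not given here, so these counts describe the members alone.

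Members with long annotated models were described apart, because some clustered genes also give longer, spliced or polyadenylated transcripts. Exonic length exceeded 1000 bases in 17 tested members. All 17 were lower in shRRM2, with a median log2 change of -2.06, beside -2.18 over the 42 shorter ones. With both hairpins 13 of the 17 were higher than in shRRM2 (median 0.29) and 40 of 42 shorter ones were (median 0.49). The 4 long ones not called were HIST1H2AC, HIST2H2BE, HIST1H4I and HIST4H4, whereas the 2 short ones were the low-count genes. The counts do not separate the long from the short forms of a gene.

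Of the long H2B genes, HIST1H2BE stood at 126, 116 and 121 CPM in the control libraries, 18.9, 21.9 and 21.1 in shRRM2 and 32.1, 31.3 and 29.2 in shRRM2/shp16. HIST1H2BF stood at 146, 143 and 148 CPM in the control libraries, 30.1, 30.6 and 32.02 in shRRM2 and 45.6, 45.9 and 40.96 in shRRM2/shp16. HIST1H2BG stood at 186, 167 and 172 CPM in the control libraries, 44.6, 44.1 and 40.4 in shRRM2 and 57.3, 56.8 and 55.3 in shRRM2/shp16. All 3 kept the same order of groups, with shRRM2 lowest and no overlap. HIST1H2BH stood at 208, 185 and 187 CPM in the control libraries, 46.9, 47.9 and 43.8 in shRRM2 and 58.4, 54.6 and 55.8 in shRRM2/shp16. HIST1H2BN stood at 88.9, 84.5 and 84.3 CPM in the control libraries, 24.7, 26.5 and 23.5 in shRRM2 and 30.5, 29.1 and 30.5 in shRRM2/shp16, and it covers HIST1H2AK on the opposite strand, so with the strand setting of the counting not known their reads may be mixed. Both had their lowest values in shRRM2. HIST2H2BF stood at 187, 173 and 177 CPM in the control libraries, 31.5, 32.2 and 30.1 in shRRM2 and 45.8, 47.4 and 44.6 in shRRM2/shp16. HIST3H2BB stood at 15.2, 15.3 and 14.5 CPM in the control libraries, 2.54, 2.596 and 2.295 in shRRM2 and 4.65, 4.33 and 4.08 in shRRM2/shp16. The order of groups was again the same in each, and HIST3H2BB was at 16.5% of control in shRRM2 beside 43.7% for its neighbour HIST3H2A.

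Long H3 and H4 models were lower in shRRM2 as well. With both hairpins their log2 changes from shRRM2 were positive except for HIST4H4, described above, at -0.13 (not called). HIST1H3E stood at 189.7, 176 and 181 CPM in the control libraries, 55.4, 55.95 and 49.01 in shRRM2 and 61.2, 63.6 and 61.2 in shRRM2/shp16. HIST1H3G stood at 179, 176 and 174 CPM in the control libraries, 37.1, 44.2 and 39.8 in shRRM2 and 49.4, 49.8 and 49.4 in shRRM2/shp16. HIST1H3H stood at 163, 137 and 144 CPM in the control libraries, 24.5, 27.9 and 21.1 in shRRM2 and 36.7, 39.1 and 38.9 in shRRM2/shp16. HIST1H3H fell to 16.6% of control and HIST1H3E to 29.3%, and neither overlapped with control. HIST1H4H stood at 239, 231 and 241 CPM in the control libraries, 59.1, 63.6 and 48.5 in shRRM2 and 72.3, 74.6 and 69.4 in shRRM2/shp16. HIST1H4I stood at 57.95, 53.8 and 55.6 CPM in the control libraries, 9.01, 12.00 and 11.02 in shRRM2 and 12.3, 12.9 and 11.4 in shRRM2/shp16, where the shRRM2 and shRRM2/shp16 libraries overlap.

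Reads that align to several copies are a limit of this family. Not unique alignments were 40.3% to 44.9% of tallied entries in every library, and over 50% of the 50-base windows were shared with other transcripts in 10 tested members. Those 10 had a median log2 change of -2.10 in shRRM2, beside -2.19 in the 25 members with no shared window and -2.15 in the 49 with at most 50% shared. HIST1H2AD and HIST1H3D share theirs with AL031777.3, an annotated gene that overlaps them on the same strand. HIST1H2AK shares its windows with HIST1H2BN, which overlaps it on the opposite strand. A window shared with a gene model at the same position is not a copy elsewhere. The median of the 10 therefore does not describe multiply aligned genes alone. The near-identical pairs HIST2H3A and HIST2H3C, HIST2H4A and HIST2H4B, and both identifiers of HIST2H2AA4 summed to at most 15 counts each, with 97.1% to 100% of windows shared, so these genes cannot be described from such counts. HIST2H2BC, HIST2H2BD, HIST2H3DP1 and HIST3H2BA were too low to test. HIST3H2BA was read 6, 10 and 6 times in the control libraries, 0, 2 and 0 in shRRM2 and 3, 0 and 1 in shRRM2/shp16.

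Many clustered histone genes lie head to head with a neighbour and share the region between their start sites. Among tested members there were 10 such pairs, 9 of an H2A with an H2B gene and 1 of an H3 with an H2B gene (HIST1H3J and HIST1H2BO). The annotated starts lay 219 to 357 bases apart, furthest in the H3 and H2B pair. HIST1H2AM starts nearer to HIST1H2BO, at 314 bases, but had 2 counts and was not a member. The HIST1H3J model overlaps HIST1H2AM on the same strand, and 86.3% of HIST1H2AM windows occur in HIST1H3J. Partners differed in their log2 change in shRRM2 by a median of 0.43, by under 0.5 in 6 pairs and by at most 1.39. HIST1H2AJ and HIST1H2BM had close values (-2.75 and -2.77), as did HIST1H2BJ and HIST1H2AG (-2.03 and -2.06). HIST3H2A and HIST3H2BB did not, at -1.21 ± 0.13 and -2.60 ± 0.12 (SE). For this pair the ratio of HIST3H2A to HIST3H2BB counts was 0.636, 0.557 and 0.510 in the control libraries, 1.48, 1.44 and 1.6 in shRRM2, and 1.14, 1.17 and 1.29 with both hairpins. The ratio of HIST1H2BK to HIST1H2AH was 1.10, 1.31 and 1.31 in control, 2.01, 1.89 and 2.01 in shRRM2, and 1.599, 1.59 and 1.68 with both hairpins. In both pairs the 3 groups do not overlap, with the highest ratio in shRRM2 and an intermediate one in shRRM2/shp16. The first ratio is H2A to H2B and the second H2B to H2A, so the balance of H2A to H2B moved in opposite directions. The 3 groups were also apart for HIST1H2BG to HIST1H2AE, with the highest ratio in shRRM2 (0.766, 0.719 and 0.696). For HIST1H2BL to HIST1H2AI they were apart too, with the lowest ratio in shRRM2 (0.564, 0.547 and 0.557). These pairs were chosen after their values were seen, and the ratios are given as a description.

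Genes that make or handle histone mRNA had smaller changes at the median. SLBP is counted in this list and in that of S-phase genes. Of 25 listed genes for transcription and 3′ processing of histone mRNA and its cell cycle control, 17 (68%) were lower in shRRM2, 4 (16%) were higher and 4 did not pass, with a median log2 change of -0.24. Over all tested genes 31.8% were lower and 29% higher. SLBP stood at 66.8, 68.9 and 64.2 CPM in the control libraries, 48.6, 49.5 and 51.4 in shRRM2 and 44.00, 44.3 and 48.2 in shRRM2/shp16, a change of -0.42 ± 0.05 (SE, adjusted p = 2.56e-10). NPAT, the coactivator at the histone locus body that cyclin E and CDK2 phosphorylate, rose by 0.30 ± 0.06 (SE, adjusted p = 0.000112), and CASP8AP2 (FLASH), needed for both transcription and processing, rose by 0.35 ± 0.06 (SE, adjusted p = 8.86e-07). The lowest of the list was SRRT (ARS2), a partner of the cap-binding complex, at -0.81 ± 0.04 (SE, adjusted p = 1.17e-22), and the highest was CCNE1, cyclin E, at 0.74 ± 0.10 (SE, adjusted p = 8.58e-09). CCNE1 stood at 7.54, 8.55 and 7.51 CPM in the control libraries, 12.3, 13.4 and 13.7 in shRRM2 and 5.02, 5.58 and 5.91 in shRRM2/shp16, so it was highest where histone mRNA was lowest.

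With both hairpins, 10 of these 25 genes (40%) were lower than in shRRM2, 10 (40%) were higher and 5 did not pass, where 29.1% of all tested genes were lower and 31.9% higher. The list as a whole thus leaned neither way. SLBP was lower again at -0.13 ± 0.05 (SE, adjusted p = 0.0193), and CASP8AP2 was lower at -0.26 ± 0.06 (SE, adjusted p = 0.000132). CCNE1 had a change of -1.26 ± 0.10 (SE, adjusted p = 3.06e-14), while NPAT did not pass at -0.01 ± 0.06 (SE, adjusted p = 0.863). SRRT rose by 0.44 ± 0.04 (SE, adjusted p = 1.65e-13). Between the hairpin groups SLBP mRNA was thus slightly lower where most histone genes were higher. Against control, both SLBP and the histone genes were lower in shRRM2. The part of the genes of this list in the histone values was not tested.

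Histone chaperones carry new histones to chromatin. Of 23 listed, 18 (78.3%) were lower in shRRM2, against 31.8% of all tested genes, 1 was higher and 4 did not pass, with a median log2 change of -0.57. HJURP, the chaperone of the centromeric H3 variant, was lowest at -1.42 ± 0.05 (SE, adjusted p = 6.68e-28), and ATRX, which works with DAXX in placing H3.3, was the higher one at 0.49 ± 0.03 (SE, adjusted p = 2.08e-16). With both hairpins 6 (26.1%) were lower than in shRRM2, 8 (34.8%) were higher and 9 did not pass. These shares are near the 29.1% and 31.9% of all tested genes.

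Histone genes outside the clusters make polyadenylated mRNAs, most of them through the whole cell cycle. Of 12 listed, 11 were tested: 9 were lower in shRRM2 and 2 higher, with a median log2 change of -0.84, and 9 were higher with both hairpins than in shRRM2 and 2 lower, with a median of 0.56. Each count of 9 is 81.8% of the genes tested, where 31.8% of all tested genes were lower in shRRM2 and 31.9% higher with both hairpins. CENPA, the centromeric H3 made late in the cycle, stood at 31.9, 32.6 and 30.7 CPM in the control libraries, 6.09, 6.92 and 7.63 in shRRM2 and 10.5, 11.9 and 11.6 in shRRM2/shp16, a change of -2.20 ± 0.08 (SE, adjusted p = 8.85e-26) and then 0.71 ± 0.10 (SE, adjusted p = 4.56e-08). H2AFJ, an H2A variant gene, went the opposite way, at 16.01, 14.6 and 14.7 CPM in the control libraries, 21.3, 21.7 and 20.3 in shRRM2 and 13.6, 12.4 and 13.4 in shRRM2/shp16, a change of 0.48 ± 0.07 (SE, adjusted p = 4.4e-07) and then -0.69 ± 0.08 (SE, adjusted p = 1.61e-10).

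Genes of DNA replication in S phase fell with the histones in shRRM2, but most of them did not rise with the histones when the p16 hairpin was added. All 32 listed genes were lower in shRRM2, against 31.8% of all tested genes (median log2 change -0.91, 9 of them at least 2-fold), from -1.40 ± 0.14 for PRIM1, the primase subunit, to -0.33 ± 0.06 (SE) for RPA2, which coats single-stranded DNA. With both hairpins 21 of the 32 (65.6%) were lower still than in shRRM2, against 29.1% of all tested genes, 2 (6.25%) were higher, against 31.9%, and 9 did not pass, with a median of -0.31. In the same comparison 53 of 59 clustered histone genes were higher and 0 were lower. The 2 S-phase genes that rose were MCM7 and POLA1, by 0.22 and 0.16, chosen for naming after their values were seen.

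**Figure D5:**
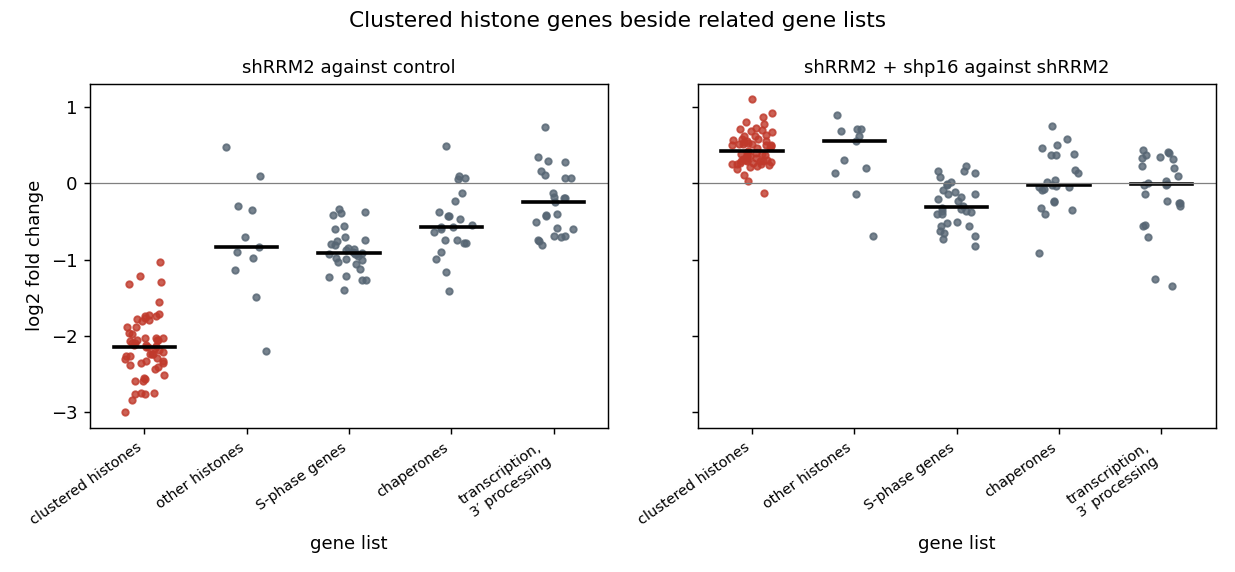
Log2 fold change (y axis) of each tested gene in 5 lists (x axis) in shRRM2 against control (left) and in shRRM2/shp16 against shRRM2 (right), where points are genes, spread sideways to be visible, and bars are list medians. The clustered histones (red) have a median of -2.15 on the left and 0.43 on the right, and the S-phase genes -0.91 and -0.31.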

How the data were processed

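Stranded, ribosomal RNA depleted libraries of IMR90 total RNA were sequenced in 3 groups of 3, grouped by the labels, which name no batch. For each library the authors deposited 1 file of raw counts by Ensembl identifier, in HTSeq layout. The submitters' processing notes name TopHat2 2.0.9, Cufflinks 2.0.2, Cuffdiff and GRCh38, and the annotation and strand setting are not given in the sources used here. The authors also deposited a table of log2 RPKM values and, per the file headers, the log2 fold change between both hairpin groups with its p-value and q-value. 8 of its 9 log2 RPKM columns match the counts within 2% for 100% of 9892 genes, and that of shRRM2 replicate c for 12.4%. There were 0 columns that matched no sample.

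Tally lines that name no gene were left out of library sizes. Genes were kept with filterByExpr (16561 genes, 99.8% of counts), scaled with TMM and fitted over all 9 libraries with the quasi-likelihood test of edgeR 4.0.16 in R 4.3.3 (6 residual degrees of freedom). Tests were two-sided with Benjamini-Hochberg adjustment over all tested genes and a threshold of 0.05. Depth limits low genes: counts of a member ran down to 0 in a library, and counting error of amplified reads without molecular identifiers is not the spread between cultures. Alternatives were RLE scaling, DESeq2 1.42.0, no filter or at least 10 counts in every library, the 6 libraries compared alone, a replicate block, limma 3.58.1 on the log2 RPKM values the authors deposited, and leaving out each library. The test was checked on simulated data. Sequences, gene models and shared 50-base windows came from GENCODE 29 and promoters from RefSeq (GRCh38.p14).

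Members and gene lists were chosen with earlier results of these data known. Values by library are given for the 2 members of each class with the highest mean CPM, its lowest and highest log2 fold change in shRRM2 (mean log2 CPM of at least 2), all H1 members and tested members with over 1000 exonic bases, and for SLBP, NPAT, CASP8AP2, RRM2, CDKN2A and the extremes of each list, by library or as fold changes. Other names were chosen after their values were seen.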

Additional observations from a re-analysis of the deposited data

How the results depend on the processing

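All 59 tested members were lower in shRRM2 than in control under the main settings and every alternative that tested them (57 to 60 calls), and 57 to 60 were lower in shRRM2/shp16 than in control. For shRRM2/shp16 against shRRM2, 52 to 55 members were called under all settings but limma on the 9 log2 RPKM columns of the authors, which called 12. Limma on the 8 matching columns, an alternative chosen after seeing the data, called 54. Shares of all genes called under the alternatives are not given here, so these counts describe the members alone. The sign for HIST1H2AC in this comparison (log2 change 0.04, not called) reversed to -0.0456 with limma on the 9 columns and to -0.0484 without shRRM2 replicate c, and leaving out 1 library gave -0.0484 to 0.104. No pairing by replicate letter was seen, which does not show that the libraries were unpaired by design. Deviations of libraries with the same letter correlated by -0.020 to 0.049, and with different letters by -0.048 to 0.036. With a replicate block 59, 53 and 59 members were called in the 3 comparisons. RLE scaling moved the median of all genes by at most 0.01 on the log2 scale. Low counts limit HIST2H2BA, HIST1H4K and the 5 untested members, and copies with shared sequence are limited by reads that align to more than 1 place.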
